A study of Mus musculus with 48 samples.

Results

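The mitochondrial genome (chrM) supplied 37 of the 49585 gene rows that both deposited tables of mouse kidney RNA hold. They are 13 mRNAs, 2 rRNAs and 22 tRNAs. All rows of that chromosome were taken, whatever their values, but earlier results of these data were known when this part was chosen. The series asked how D-alanine, the mirror-image form of L-alanine, bears on the circadian rhythm. Kidneys labelled WT came from mice given D-alanine (D-Ala) or Vehicle and collected at circadian times CT0, CT4, CT8, CT12, CT16 and CT20, with 4 libraries in each of 12 groups; dose, route, sex, age and strain are not given in the labels used here. The series text speaks of kidneys from different mice and of an experiment done on more than 1 occasion, so each library was taken as 1 animal, although the labels give no animal numbers.

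Mitochondrial DNA is a small circle that is copied and read inside the organelle. Its strands are transcribed by a single polymerase into long RNAs, and tRNAs lying between the mRNAs and rRNAs are cut out as punctuation, which frees the other products. Most genes, both rRNAs and all but 1 of the mRNAs lie on the plus strand of the reference sequence, while mt-Nd6 and 8 tRNAs (mt-Tq, mt-Ta, mt-Tn, mt-Tc, mt-Ty, mt-Ts1, mt-Te and mt-Tp) lie on the minus strand and come from the other transcript. The mRNAs encode core subunits of complexes I, III and IV and of ATP synthase, of which the kidney tubule has a great need, and the rRNAs and tRNAs serve the ribosome that translates them.

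Depth was 7626057 to 14403230 fragments per library (median 11601134), recovered from the steps in the deposited values. Of the 24 libraries in each table, 2 came from every group, and the table was a term of every fit. The values are FPKM, fragments scaled by the length of the gene and the total of the library, which puts genes of different length on 1 scale. Comparison between genes is limited where a gene is short, overlaps a neighbour or has a copy elsewhere in the genome. The tissue label stood with the markers: all 8 proximal tubule markers were tested, and their summed level was 2478 to 3668 FPKM in D-Ala and 2637 to 3419 FPKM in Vehicle libraries of the second table, and 1694 to 4006 FPKM in D-Ala and 2036 to 3781 FPKM in Vehicle libraries of the first. Lymphocyte markers summed to at most 6.18 FPKM in D-Ala and 3.72 FPKM in Vehicle libraries. Collecting duct markers summed to 262 to 856 FPKM in D-Ala and 276.5 to 729 FPKM in Vehicle libraries of the second table. In the first table they reached from 205 to 3127 FPKM in D-Ala (median 653) and from 245 to 1204 FPKM in Vehicle libraries (median 609). Inner medulla markers of the first table summed to 21.4 to 708 FPKM in D-Ala (median 197) and 29.8 to 385 FPKM in Vehicle libraries (median 129). No marker list had a member called between D-Ala and Vehicle with limma at an adjusted p of 0.05, the smallest adjusted p over the lists being 0.125. Of all genes 1.74% were called, so few calls among the markers would stand out. Median log2 differences of the lists ran from -0.04 (lymphocyte) to 0.29 (adipose), beside 0.06 for all genes. The endothelial list (median 0.19) was the only 1 with 0 members below 0, and a difference in cell make-up was not tested.

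Stretches of several genes recur outside chrM, which decides how well their RNA can be told from nuclear sequence. Chromosome 1 carries 7 annotated pseudogenes between positions 24611535 and 24616197 (GRCm38, minus strand) in the same order as chrM 6394 to 11042, a run of 4649 bases. Of the 7 copies, 6 had 0 mismatches to chrM over their aligned length. The 60 bases of mt-Co1 shown here (chrM, GRCm38, plus strand, 6448 to 6507, in the coding exon) are given with the chromosome 1 copy Gm29216 (24616071 to 24616130, minus strand) and the chromosome 2 copy Gm13340 (22588468 to 22588527, minus strand), because they show how unlike these copies are; capitals mark bases that differ from mt-Co1. All sequences are from the GENCODE M21 transcripts, in the direction of the gene.
mt-Co1: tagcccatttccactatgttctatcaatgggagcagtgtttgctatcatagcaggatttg
Gm29216: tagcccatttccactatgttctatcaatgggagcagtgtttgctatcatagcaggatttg
Gm13340: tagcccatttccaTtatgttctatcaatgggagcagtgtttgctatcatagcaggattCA
The copy on chromosome 1 has 0 differences in this window and the one on chromosome 2 has 3. Over its whole length Gm13340 was 97.6% identical to mt-Co1.

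The mRNA mt-Atp8 (chrM 7766 to 7969, plus strand, 204 bases, a single coding exon) is shown because it had the largest treatment difference among the mRNAs. Its last 43 bases, in capitals, are also the start of mt-Atp6.
mt-Atp8: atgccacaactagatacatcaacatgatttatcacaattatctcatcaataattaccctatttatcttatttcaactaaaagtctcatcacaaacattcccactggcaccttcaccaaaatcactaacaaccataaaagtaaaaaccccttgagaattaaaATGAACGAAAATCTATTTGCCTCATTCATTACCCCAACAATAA
A constant sum of chrM and chromosome 1 positions holds for the copies on either side of it. This puts the matching interval at 24614609 to 24614812 of chromosome 1. The part that matches the 43 shared bases lies in Gm10925 (24613974 to 24614651), the copy of mt-Atp6. The rest of the interval lies outside the annotated copies. The genome sequence of that interval was not analysed here.

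Of the tRNAs, 5 are printed: mt-Tv (valine), which lies between the rRNAs; mt-Tw (tryptophan) and mt-Tm (methionine), which varied with time of day; mt-Te (glutamate), with the largest difference between the tables; and mt-Ts1 (serine), with the highest mean level. Capitals mark bases shared with a neighbouring mRNA, mt-Nd2 for mt-Tw and mt-Co1 for mt-Ts1.
mt-Tv: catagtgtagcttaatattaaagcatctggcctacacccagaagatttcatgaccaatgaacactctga
mt-Tw: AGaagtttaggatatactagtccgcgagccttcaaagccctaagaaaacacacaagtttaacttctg
mt-Tm: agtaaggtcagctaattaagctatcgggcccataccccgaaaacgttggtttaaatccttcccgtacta
mt-Te: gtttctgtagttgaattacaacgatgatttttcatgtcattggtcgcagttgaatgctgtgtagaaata
mt-Ts1: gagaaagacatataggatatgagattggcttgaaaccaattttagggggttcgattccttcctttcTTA
Their positions on chrM are 1025 to 1093 (plus) for mt-Tv, 4950 to 5016 (plus) for mt-Tw, 3845 to 3913 (plus) for mt-Tm, 14071 to 14139 (minus) for mt-Te and 6870 to 6938 (minus) for mt-Ts1.

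Levels of the 13 mRNAs fell into a high and a low set. Over the 48 libraries, mt-Cytb, the cytochrome b of complex III, averaged 33119 FPKM, and mt-Co1, the catalytic subunit of complex IV, 33111 FPKM. The complex I subunits mt-Nd1, mt-Nd2, mt-Nd4 and mt-Nd5 averaged 27315, 17491, 13655 and 9268 FPKM. By contrast, the complex IV subunits mt-Co2 and mt-Co3 averaged 2021 and 1119 FPKM, the ATP synthase subunits mt-Atp6 and mt-Atp8 1678 and 120 FPKM, the complex I subunits mt-Nd3 and mt-Nd4l 357 and 348 FPKM, and minus-strand mt-Nd6 1000.0 FPKM. Because the high set and the low set were split on mean level, they cannot overlap in it. These levels are of fragments assigned to each gene, and some genes share bases. mt-Nd4l overlaps mt-Nd4 by 7 bases and mt-Atp8 overlaps mt-Atp6 by 43, and how fragments over shared bases were counted is not stated.

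All 6 low mRNAs of the plus strand lie inside the stretch with the chromosome 1 copy. A run of 50 bases was taken as shared when it was also in an annotated nuclear transcript. Shared runs made up 100% of mt-Co2, 99.5% of mt-Atp6, 99.9% of mt-Co3, 98.0% of mt-Nd3 and 98.8% of mt-Nd4l. For mt-Nd4 the share was 62.2% and for mt-Co1 51.1%, and both were high. It was 8.2% for mt-Nd2, 7.6% for mt-Nd5 and 0% for mt-Nd1, mt-Cytb, mt-Nd6 and mt-Atp8. The 43 bases that mt-Atp8 shares with mt-Atp6, and so with Gm10925, are shorter than a run of 50. The rest of mt-Atp8 has only the unannotated counterpart described above. The chromosome 1 pseudogenes themselves had mean FPKM of 656 (Gm29216, matching mt-Co1), 588 (Gm28661, mt-Co2), 573 (Gm10925, mt-Atp6), 398 (Gm28437, mt-Co3), 140 (Gm28439, mt-Nd4), 114 (Gm28438, mt-Nd3) and 85.1 (Gm10222, mt-Nd4l). The sources used here do not say how fragments matching more than 1 place were counted, and the part of the copies in the low levels was not tested.

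**Figure D1:**
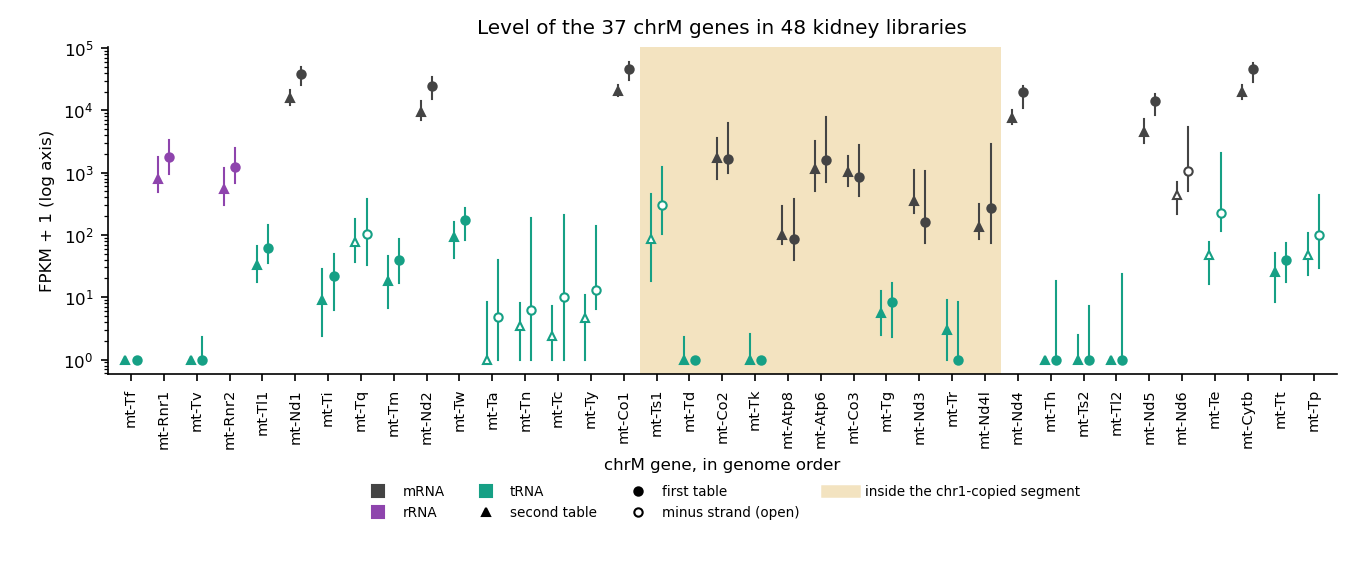
Level of each of the 37 chrM genes in genome order, as FPKM + 1 on a log axis; points are medians and bars the range over the 24 libraries of the second (triangles, left) and first table (circles, right), with open points for minus-strand genes. The 6 mRNAs wholly on the shaded stretch, which has a chromosome 1 copy, sit below the 6 other plus-strand mRNAs.

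The rRNAs averaged 1408 FPKM (mt-Rnr1, of the small ribosomal subunit) and 1000.3 FPKM (mt-Rnr2, of the large subunit), below the high mRNAs. The library kit is named for mRNA, and the selection step is not described further in the labels. Mean tRNA levels were between 0 and 262 FPKM. Highest were mt-Ts1 at 262, mt-Te at 234, mt-Tw at 130 and mt-Tq (glutamine) at 98.7 FPKM, and 3 of these 4 are minus-strand genes. At the other end, mt-Tf (phenylalanine) had 0 fragments in every library, and mt-Tv was above 0 in 1 of 48 libraries, at 1.31 FPKM, although it adjoins mt-Rnr1 and mt-Rnr2 with no base between. Likewise mt-Tk (lysine) was above 0 in 1 library and mt-Td (aspartate) in 4. The alanine tRNA, mt-Ta, was above 0 in 31 libraries with a mean of 4.25 FPKM. tRNAs are shorter than most library fragments, so these values describe fragments assigned to the gene and not the amount of mature tRNA.

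For the tests a gene had to reach 1 FPKM in 4 or more libraries. Of the 37 members 34 did, and mt-Tf, mt-Tv and mt-Tk did not. Some passed through few libraries, such as mt-Th (histidine), which was above 0 in 10 libraries, all of the first table.

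The rRNAs were the members with a clear daily course. In both treatments mt-Rnr1 and mt-Rnr2 had fitted peaks close to CT20 and were about 2-fold lower at the fitted trough, while none of the 13 mRNAs passed the test for a 24 h rhythm in either treatment. Over all genes tested 8.3% were called in D-Ala and 9.77% in Vehicle, so 0 of 13 is near that share. At CT0, mt-Rnr1 had 1084, 1130, 2458 and 2694 FPKM in the D-Ala libraries and 855, 1726, 2202 and 3365 FPKM in the Vehicle libraries, the lower pair of each being of the second table. At CT8 it had 488, 574, 972 and 1030 FPKM in D-Ala and 700, 795, 936 and 1107 FPKM in Vehicle libraries. Within each table, all CT0 libraries lay above all CT8 libraries of the same table, with no overlap.

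The same held for mt-Rnr2. Its CT0 libraries had 789, 867, 1926 and 2135 FPKM in D-Ala and 544, 1090, 1444 and 2256 FPKM in Vehicle. Its CT8 libraries had 300.0, 399, 761 and 791 FPKM in D-Ala and 501, 539, 677 and 806 FPKM in Vehicle. Again each table's CT0 values lay above its CT8 values, by the least in the second table, where the lowest CT0 library had 544 and the highest CT8 library 539 FPKM. At CT20 the D-Ala libraries of the second table were far apart, with 545 and 1007 FPKM for mt-Rnr2 and 739 and 1659 FPKM for mt-Rnr1. Over both treatments, mt-Rnr1 in that table overlapped between CT20 (739 to 1785 FPKM) and CT8 (488 to 795 FPKM). In the first table mt-Rnr1 averaged 2423, 1989 and 2680 FPKM at CT16, CT20 and CT0 (n = 4 each). For mt-Rnr2 these means were 1910, 1388 and 1940 FPKM. So CT20, near the fitted peak, lay below both neighbouring times there. In the second table CT20 had the highest mean, 1359 FPKM for mt-Rnr1 and 917 FPKM for mt-Rnr2.

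Fitted 24 h curves gave mt-Rnr1 a log2 amplitude of 0.54 ± 0.10 (SE) with a peak at CT20.3 in D-Ala, and 0.65 ± 0.10 with a peak at CT20.4 in Vehicle. For mt-Rnr2 the log2 amplitude was 0.57 ± 0.11 with a peak at CT20.2 in D-Ala and 0.67 ± 0.11 with a peak at CT20.0 in Vehicle. Peak to trough, that is 2.12-fold in D-Ala and 2.46-fold in Vehicle for mt-Rnr1, and 2.20-fold in D-Ala and 2.52-fold in Vehicle for mt-Rnr2, on the FPKM + 1 scale. With limma, the adjusted p was 0.000599 in D-Ala and 3.28e-05 in Vehicle for mt-Rnr1, and 0.000909 in D-Ala and 8.08e-05 in Vehicle for mt-Rnr2. The rRNAs were 2 of the 3 chrM genes called in each treatment, where 8.3% of the 14922 genes tested were called in D-Ala and 9.77% in Vehicle. The rhythm of mt-Rnr1 or mt-Rnr2 was not called different between treatments (smallest unadjusted p of the pair 0.727, limma F test).

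The second table alone called both rRNAs in both treatments, and the first table alone called mt-Rnr1 in Vehicle. In the second table alone the log2 amplitude of mt-Rnr1 was 0.63 ± 0.13 in D-Ala (adjusted p = 0.0194, limma) and 0.61 ± 0.13 in Vehicle (adjusted p = 0.0243). The first table alone gave 0.49 ± 0.14 in D-Ala, which did not pass (adjusted p = 0.135), and 0.69 ± 0.14 in Vehicle (adjusted p = 0.0293). For mt-Rnr2 the second table alone gave 0.68 ± 0.14 in D-Ala (adjusted p = 0.0134) and 0.66 ± 0.14 in Vehicle (adjusted p = 0.0188), and the first table alone gave 0.46 ± 0.16 in D-Ala (adjusted p = 0.227) and 0.68 ± 0.16 in Vehicle (adjusted p = 0.0643), neither past the threshold.

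Set against the mRNAs of the same genome, the course was as large. The sum of the rRNAs was 2.66 and 3.02% of the summed mRNA FPKM in the D-Ala and 1.73 and 2.65% in the Vehicle libraries of the second table at CT0, and 2.35 and 3.73% in D-Ala and 1.73 and 2.44% in Vehicle libraries of the first. At CT8 it was 1.11 and 1.26% in D-Ala and 1.18 and 1.26% in Vehicle libraries of the second table, and 0.982 and 0.987% in D-Ala and 0.843 and 0.892% in Vehicle libraries of the first. With each library scaled to an equal sum of the 13 mRNAs, the log2 amplitude of mt-Rnr1 was 0.63 ± 0.09 in both treatments.

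Nuclear genes annotated as rRNA were set beside the 8.3% and 9.77% of all genes called in D-Ala and in Vehicle. Of 354 such genes 11 passed the filter and were tested. Of these 11, 0 were called rhythmic in D-Ala (smallest adjusted p = 0.249, limma) and 0 in Vehicle (smallest adjusted p = 0.143), near those shares for so few genes. The summed level of all 354 was 13.7 to 93.7 FPKM over the libraries at CT20 and 23.3 to 40.4 FPKM at CT8. The test of these few low genes does not show that nuclear rRNA was steady. Of 67 snRNA genes tested, 0 were called in either treatment, with smallest adjusted p of 0.111 in D-Ala and 0.106 in Vehicle (limma).

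Markers of some other cell types varied with time of day too, beside the background of 8.3% of all genes in D-Ala and 9.77% in Vehicle. Of 4 podocyte markers 2 were called rhythmic in D-Ala and 3 in Vehicle, of 7 endothelial markers 1 in D-Ala and 3 in Vehicle, and of 5 red blood cell genes 0 in D-Ala and 4 in Vehicle. Of 4 thick ascending limb markers 1 was called in D-Ala and 0 in Vehicle, of 3 distal convoluted tubule markers 0 in D-Ala and 1 in Vehicle, and the proximal tubule, collecting duct, intercalated cell, inner medulla, macrophage, lymphocyte and adipose lists had 0 in both. Endothelial markers summed to 90.2 to 154 FPKM in D-Ala and 76.6 to 130 FPKM in Vehicle libraries of the second table, and to 67.6 to 458 FPKM in D-Ala and 68.6 to 191 FPKM in Vehicle libraries of the first. The podocyte sum was 38.3 to 67.5 FPKM in D-Ala and 33.6 to 72.6 FPKM in Vehicle libraries of the second table, and 36.4 to 76.6 FPKM in D-Ala and 42.4 to 72.8 FPKM in Vehicle libraries of the first. Red blood cell genes summed to 195 to 399 FPKM in D-Ala and 148 to 442 FPKM in Vehicle libraries of the second table, and to 129 to 457 FPKM in D-Ala and 92.1 to 438 FPKM in Vehicle libraries of the first. No list marker was at 0 in every library, and the part of these cells in the rRNA course was not tested. In whole kidney, fewer cells of a type and less RNA per cell cannot be told apart.

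**Figure D2:**
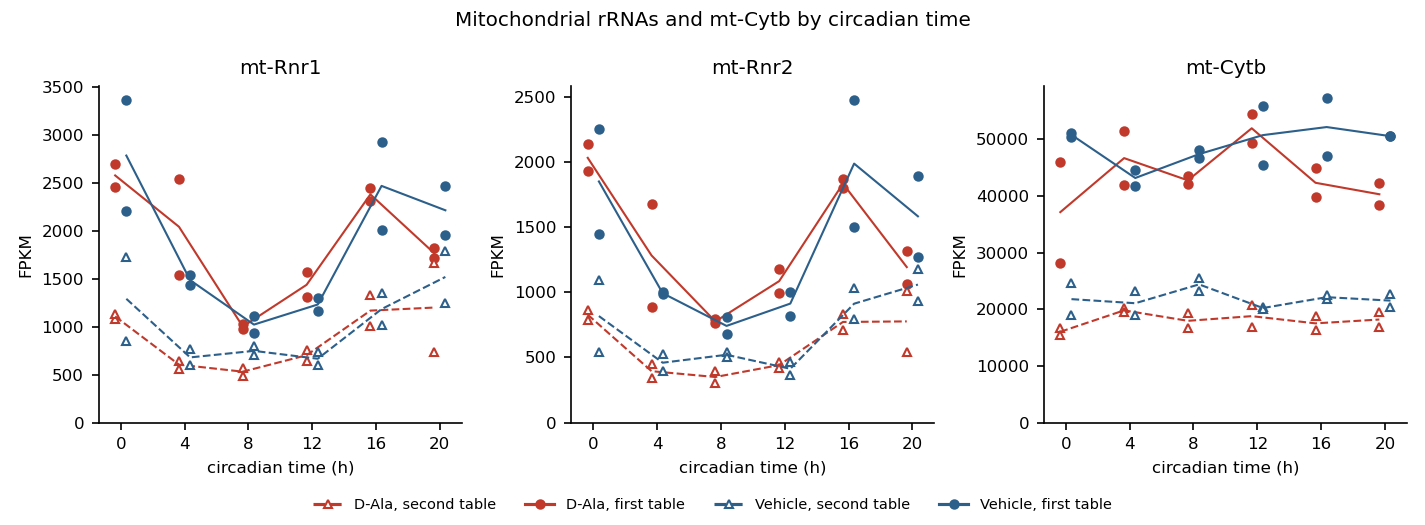
FPKM of mt-Rnr1, mt-Rnr2 and, for comparison, the mRNA mt-Cytb against circadian time, 1 point per library, D-Ala drawn left of Vehicle at each time; lines join the mean of the 2 libraries of a treatment and table (dashed and open for the second table, solid and filled for the first). Both rRNAs are lowest at CT8 in the first table and low from CT4 to CT12 in the second, and mt-Cytb was not called rhythmic.

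The mRNAs had log2 amplitudes of 0.05 to 0.47 in D-Ala and 0.04 to 0.27 in Vehicle. With limma, 0 of 13 were called in either treatment, near the share over all genes (8.3% in D-Ala, 9.77% in Vehicle). Of the 13, 2 had an unadjusted p under 0.05 in D-Ala and 0 in Vehicle, where 3458 and 3620 of all 14922 genes did. Limma voom on recovered fragments also called 0, beside 8.35% of all genes in D-Ala and 10% in Vehicle. The pair below 0.05 unadjusted in D-Ala was mt-Nd6 (log2 amplitude 0.45 ± 0.17, adjusted p = 0.182) and mt-Nd5 (0.17 ± 0.07, adjusted p = 0.211). For the high mRNAs the fitted amplitudes had small errors, such as 0.04 ± 0.05 for mt-Cytb and 0.07 ± 0.06 for mt-Nd2 in Vehicle.

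Of 19 tRNAs tested, 1 was called rhythmic in each treatment, no more than the share over all genes (8.3% in D-Ala, 9.77% in Vehicle). In D-Ala it was mt-Tw, with a log2 amplitude of 0.42 ± 0.10 and a peak at CT9.49 (adjusted p = 0.0155, limma), nearly opposite in phase to the rRNAs. It had 45.3, 57.4, 82.7 and 102 FPKM at CT0 and 73.5, 91.9, 211 and 271 FPKM at CT12 in D-Ala libraries, and 53.8, 114, 121 and 145 FPKM at CT0 and 86.6, 106, 128 and 238 FPKM at CT12 in Vehicle libraries. In each table the D-Ala libraries at CT12 lay above those at CT0, while the Vehicle libraries of the 2 times overlapped. In Vehicle the log2 amplitude of mt-Tw was 0.24 ± 0.10 with a peak at CT8.75 (adjusted p = 0.268).

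In Vehicle the rhythmic tRNA was mt-Tm, with a log2 amplitude of 0.56 ± 0.15 and a peak at CT18.7 (adjusted p = 0.0331, limma), against 0.33 ± 0.15 with a peak at CT18.9 in D-Ala (adjusted p = 0.319). At CT16 mt-Tm had 13.7, 23.6, 51.3 and 57.5 FPKM in D-Ala and 17.9, 27.6, 62.6 and 85.3 FPKM in Vehicle libraries, and at CT4 7.13, 18.8, 22.1 and 39.9 FPKM in D-Ala and 5.74, 12.2, 24.1 and 28.8 FPKM in Vehicle libraries. The libraries of these times overlapped within D-Ala of the second table and were apart in Vehicle. The mt-Tm call in Vehicle was lost in 10 of 48 fits that left out 1 library (adjusted p 0.0124 to 0.0726), in each table alone, with voom (adjusted p = 0.0626), scaled to the 13 mRNAs (0.104), without the filter (0.0668), with median centring (0.0503) and without the table term (0.276). That of mt-Tw in D-Ala was kept in all 48 such fits and lost in the second table alone (log2 amplitude 0.29), when scaled to the 13 mRNAs (0.33) and without the table term (adjusted p = 0.314). Isoleucine tRNA mt-Ti had a like amplitude in D-Ala, 0.55 ± 0.19 with a peak at CT18.8, that did not pass as a curve (adjusted p = 0.123) and did with the times as a factor (adjusted p = 0.0284, limma). That fit called 4 chrM genes in D-Ala, the rRNAs, mt-Tw and mt-Ti, against a background of 9.7%, and 2 in Vehicle, the rRNAs, against 5.17%. No chrM gene had a called difference in rhythm between treatments (0 of 34, limma and voom, with 0 at an unadjusted p under 0.05 by limma, smallest unadjusted p 0.166).

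In FPKM as deposited, mitochondrial mRNA estimates were lower in D-Ala than in Vehicle libraries, and the calls depended on scaling, filter and table. Averaged over the 6 times, 6 of the 34 chrM genes tested were called lower and 0 higher, against a background of 1.74% of all genes called, 0.147% lower and 1.59% higher. That background itself moved with the scaling: 237 genes were called higher and 22 lower as reported, 2638 and 30 as TPM, 11815 and 17 when scaled to the 13 chrM mRNAs, 37 and 15 with scaling outside chrM, 3 and 11 with quantile normalization and 3 and 20 with median centring. The 6 chrM genes called lower were all mRNAs: mt-Nd1, mt-Nd2 and mt-Nd5 of complex I, mt-Cytb of complex III, mt-Co1 of complex IV and mt-Atp8 of ATP synthase. Estimates were below 0 for all 13 mRNAs, with a median log2 difference of -0.27, where the median of all 14922 genes was 0.06; the sign turned for 6 of them when libraries were scaled to the sum of the 13 mRNAs and for mt-Cytb with quantile normalization. The rRNAs were not called (log2 -0.08 ± 0.09 for both), and of 19 tRNAs 12 were below and 7 above 0 with none called. By limma, 0 chrM genes were called higher, and 0 by voom, which called 6 lower. In either table alone 0 chrM genes were called, beside 0% of all genes in the first and 0.0938% in the second. The chrM count was 1 without the filter (0.48% of all genes called), with quantile normalization (0.0938%) and without the table term (0.114%).

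The largest drop among the mRNAs was in mt-Atp8. In the second table it had 71.7 (lowest), 92.4 (median) and 158 FPKM (highest of 12) in D-Ala and 78.2, 114 and 289 FPKM in Vehicle libraries. In the first table it had 38.6, 74.4 and 182 FPKM in D-Ala and 60.6, 179 and 379 FPKM in Vehicle libraries. The ranges overlapped in both tables. The log2 difference was -0.76 ± 0.16 (SE; adjusted p = 0.0139, limma), with D-Ala lower in 10 of 12 pairings of time and table. It was -0.36 in the second table alone (adjusted p = 0.236) and -1.17 in the first (adjusted p = 0.620), and the treatment by table term did not pass (unadjusted p = 0.0120, 0 of 14922 genes called).

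For mt-Nd2 the D-Ala libraries of the second table had 6989, 7961 and 9714 FPKM (lowest, median, highest) and the Vehicle libraries 8900, 11186 and 14152 FPKM. In the first table D-Ala libraries had 15396, 22801 and 28275 FPKM and Vehicle libraries 22740, 27347 and 34564 FPKM. Ranges overlapped, but every Vehicle median lay above the D-Ala median of its table. Its log2 difference was -0.33 ± 0.06 (adjusted p = 0.00651, limma), lower in 11 of 12 pairings.

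mt-Cytb had 15415, 17811 and 20665 FPKM in D-Ala and 18980, 22121 and 25507 FPKM in Vehicle libraries of the second table, and 28196, 42839 and 54426 FPKM in D-Ala and 41773, 49248 and 57278 FPKM in Vehicle libraries of the first. Its log2 difference was -0.23 ± 0.05 (adjusted p = 0.0115, limma), lower in 10 of 12 pairings. In the second table the D-Ala and Vehicle libraries overlapped between 18980 and 20665 FPKM only.

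The 3 remaining calls were of the same small size. mt-Nd1 had 12155, 13443 and 16928 FPKM (lowest, median, highest) in D-Ala and 14586, 18416 and 21358 FPKM in Vehicle libraries of the second table, and 25683, 37079 and 46787 FPKM in D-Ala and 35800, 39547 and 49074 FPKM in Vehicle libraries of the first. mt-Co1 had 17060, 18627 and 22019 FPKM (lowest, median, highest) in D-Ala and 18536, 22620 and 25447 FPKM in Vehicle libraries of the second table, and 31186, 40504 and 54064 FPKM in D-Ala and 35308, 48323 and 60406 FPKM in Vehicle libraries of the first. mt-Nd5 had 2969, 3911 and 5189 FPKM (lowest, median, highest) in D-Ala and 3961, 4976 and 7354 FPKM in Vehicle libraries of the second table, and 8311, 12762 and 16973 FPKM in D-Ala and 10683, 15020 and 18398 FPKM in Vehicle libraries of the first. For each of them the D-Ala and Vehicle ranges overlapped and the D-Ala median was the lower in both tables. mt-Nd1 differed by log2 -0.25 ± 0.05 (adjusted p = 0.0139), mt-Co1 by -0.21 ± 0.05 (adjusted p = 0.0187) and mt-Nd5 by -0.27 ± 0.06 (adjusted p = 0.0208, limma). mt-Nd4 had a like estimate, -0.21 ± 0.06, and did not pass (adjusted p = 0.0691). mt-Nd6, on the other strand, was at -0.06 ± 0.18 (adjusted p = 0.875).

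Of the 5 other mRNAs wholly within the stretch copied on chromosome 1, none passed the threshold. Their estimates were -0.52 ± 0.17 for mt-Co2 (adjusted p = 0.0826), -0.52 ± 0.18 for mt-Co3 (adjusted p = 0.0995), -0.56 ± 0.20 for mt-Atp6 (adjusted p = 0.116), -0.41 ± 0.22 for mt-Nd3 (adjusted p = 0.278) and -0.23 ± 0.28 for mt-Nd4l (adjusted p = 0.662). The median over the 6 mRNAs of the stretch was -0.52 and over the 7 others, of which mt-Co1 and mt-Nd4 reach into it, -0.23; the difference between these sets was not tested. Of the chromosome 1 copies, Gm10222 (-0.54 ± 0.12, adjusted p = 0.0143), Gm28439 (-0.52 ± 0.12, adjusted p = 0.0187) and Gm28438 (-0.44 ± 0.12, adjusted p = 0.0448) were called lower in D-Ala as well. Gm29216 was at 0.02 ± 0.19 (adjusted p = 0.963). On chromosome 2, Gm13339 (-0.54 ± 0.11, adjusted p = 0.0130) and Gm13340 (-0.32 ± 0.07, adjusted p = 0.0187) were called lower. With the fragments of the chromosome 1 copies added to their chrM genes, the call count was again 6. Of the 6 genes called before, mt-Co1 alone had a copy added to it. Gm10925, which holds the 43 bases that mt-Atp8 shares with mt-Atp6, was added to mt-Atp6 alone. The values of the other genes called before were unchanged by this sum, so the count says little about the part of the copies.

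FPKM is scaled by the fragments of a library, of which chrM genes took 8.38 to 29.0% in D-Ala and 9.46 to 31.1% in Vehicle libraries. The scaling of a library and these differences are therefore tied. Of summed FPKM, chrM genes took 14.9 to 46.0% in D-Ala and 16.9 to 47.0% in Vehicle libraries. This FPKM share was 16.95 ± 1.36% in D-Ala and 19.9 ± 1.95% in Vehicle libraries of the second table (SD, n = 12 each). In the first table it was 37.4 ± 4.33% in D-Ala and 41.4 ± 3.38% in Vehicle libraries. It was lower in D-Ala in 10 of 12 pairings of time and table. Quantile normalization, which gives every library the same distribution, moved mt-Cytb to 0.03 and mt-Nd1 to -0.06 and left mt-Atp8 as the 1 call. Because it gives equal ranks equal values, a difference in level without a change of rank cannot show there. Scaling to genes outside chrM left 4 calls. Without the filter on low values the estimates of mt-Nd1, mt-Nd2, mt-Cytb and mt-Atp8 were as before and mt-Atp8 was the 1 call (adjusted p = 0.0287), and neither table alone gave a chrM call. With each library scaled to the sum of the 13 mRNAs, which moved the median of all genes to 0.26, mt-Atp8 was at -0.51 (adjusted p = 0.00376) and mt-Nd2 at -0.08 (adjusted p = 0.00751).

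**Figure D3:**
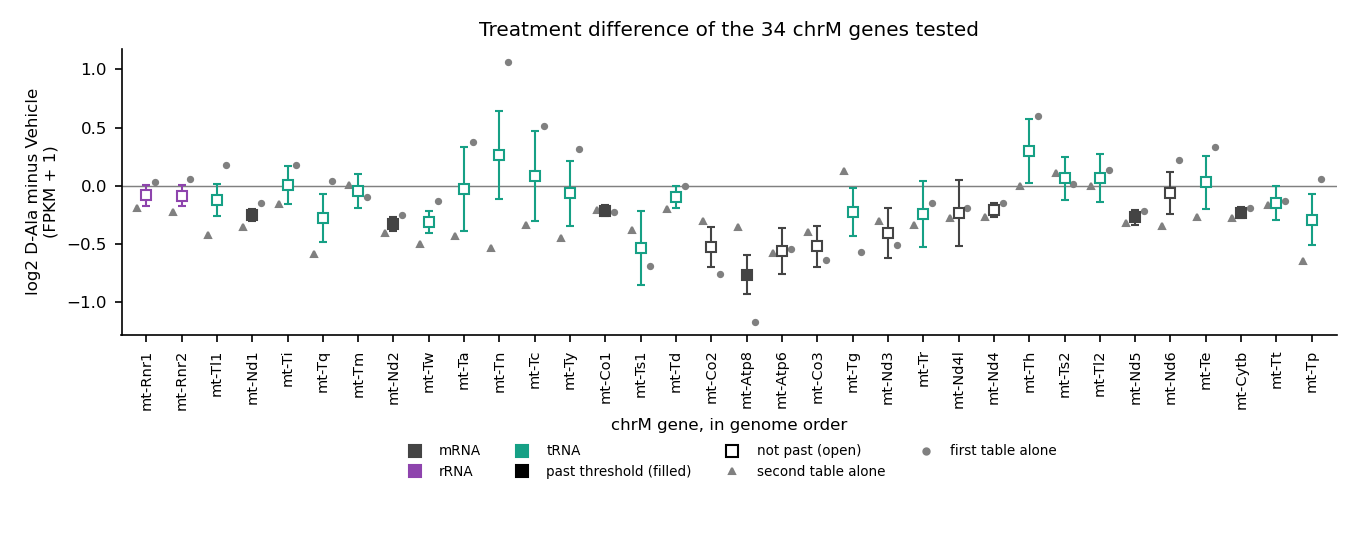
Log2 difference D-Ala minus Vehicle over the 6 times (squares with SE bars, on the FPKM + 1 scale) for the 34 chrM genes tested, in genome order, filled where past the adjusted threshold; grey triangles and circles give the second and the first table alone. All 13 mRNAs lie below 0 on this scale, with mt-Atp8 lowest at -0.76, and the rRNAs lie at -0.08; scaling to the summed mRNAs turns 6 of the mRNA signs.

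**Figure D4:**
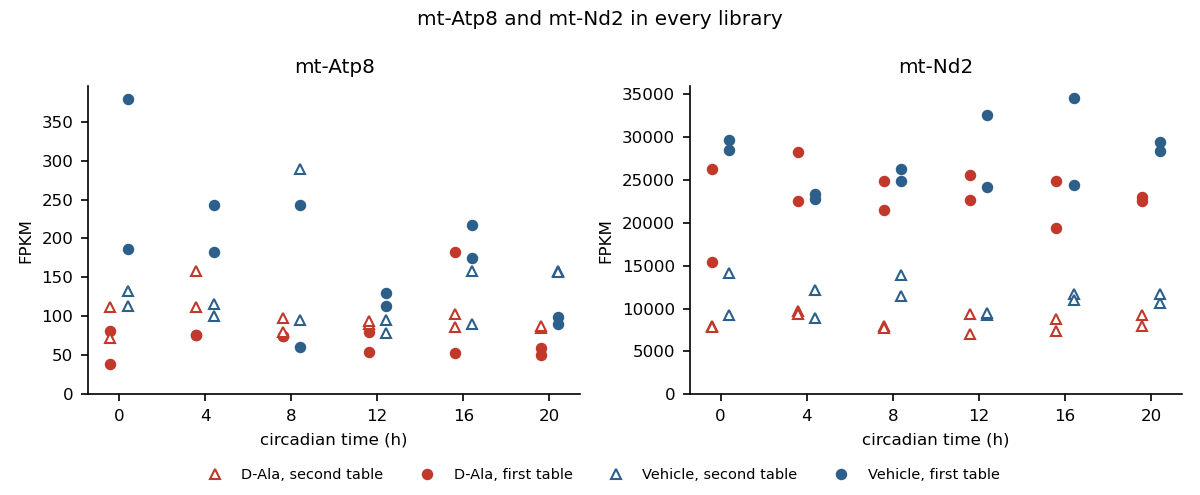
FPKM of mt-Atp8 and mt-Nd2 in every library by circadian time, D-Ala left of Vehicle, open triangles for the second and filled circles for the first table. The Vehicle libraries of mt-Atp8 reach 379 FPKM and the D-Ala libraries 182 FPKM.

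By time, the mRNA estimates were lower in D-Ala for 13 of 13 at CT0 and at CT8, 12 at CT16, 11 at CT20, 10 at CT12 and 7 at CT4. At CT0, where 1.14% of all genes were called, 0.0268% lower and 1.11% higher, 1 chrM gene was called: mt-Cytb, at log2 -0.46 ± 0.12 (adjusted p = 0.0461, limma). Its D-Ala libraries had 15415 and 16617 FPKM in the second table and 28196 and 46045 FPKM in the first, and its Vehicle libraries 18980 and 24569 FPKM in the second and 50405 and 51104 FPKM in the first, with no overlap within a table. No chrM gene was called at CT0 with a pseudocount of 0.1, no filter, quantile normalization, median centring, scaling outside chrM, no table term, either table alone, or without the 4 libraries described below. In those settings at most 0.476% of all genes were called at CT0. With quantile normalization, median centring, no table term or the second table alone it was 0%, so a chrM count of 0 there is not particular to chrM. The count was 1 with robust moderation (1.12% of all genes called) or with the chromosome 1 copies added (1.14%), of which mt-Cytb has none. It was 2 with voom (1.28%) and 4 as TPM (17.5%). Scaling to the 13 mRNAs gave 2, 1 of them higher, beside 61% of all genes called. With 1 library left out the count ran from 0 to 5. At the other 5 times 0% of all genes were called by limma, and voom called 0 at each of them. Of the 34 chrM genes, 7 had an unadjusted p under 0.05 by limma at CT8, 8 at CT16, 4 at CT20 and 0 at CT4 and CT12. Of all 14922 genes it was 2215 at CT8, 708 at CT16, 384 at CT20, 381 at CT4 and 338 at CT12. The treatment by time interaction called 0 of 14922 genes (527 with an unadjusted p under 0.05, of which 2 chrM genes; voom 0), so a difference between times was not shown. At CT0 the rRNA estimates were -0.11 ± 0.22 for mt-Rnr1 and 0.14 ± 0.23 for mt-Rnr2, beside a median of -0.50 for the mRNAs.

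The tables differed in most members. The second table had 25 of 34 chrM genes lower and 2 higher, against a background of 64% of all genes called, 23% lower and 41% higher. mt-Nd5 had 2969, 4539 and 7354 FPKM in the second and 8311, 14322 and 18398 FPKM in the first table (lowest, median, highest of 24), with no overlap and a log2 difference of -1.62 ± 0.06 (adjusted p = 1.36e-22, limma). All 7 mRNAs that do not lie wholly in the copied stretch were lower, with a median of -1.30; mt-Co1 and mt-Nd4 among them reach into it. Among the 6 wholly inside it, the median was -0.01: mt-Atp6 (-0.61 ± 0.20) and mt-Nd4l (-1.26 ± 0.28) were called lower, mt-Nd3 was called higher (0.86 ± 0.22, adjusted p = 0.000647), and mt-Co2, mt-Co3 and mt-Atp8 were not called. The rRNAs were lower, by -0.99 ± 0.09 (mt-Rnr1) and -1.08 ± 0.09 (mt-Rnr2). Arginine tRNA mt-Tr was the other gene called higher (0.68 ± 0.28, adjusted p = 0.0340), at 1.94 FPKM median in the second and 0 in the first table. Markers moved with the table as well. Of 4 thick ascending limb markers 3 were called higher in the second table, of 8 proximal tubule markers 5 higher and 2 lower, of 5 intercalated cell markers 3 higher, of 7 endothelial markers 4 lower and of 4 podocyte markers 2 lower. The thick ascending limb sum was 494 to 1596 FPKM in D-Ala and 358 to 970.2 FPKM in Vehicle libraries of the second table, and 220 to 503 FPKM in D-Ala and 218 to 566 FPKM in Vehicle libraries of the first. All 4 inner medulla markers were called lower in the second, and their sum was 20.6 to 128 FPKM in D-Ala and 25.5 to 109 FPKM in Vehicle libraries of the second table, against 21.4 to 708 FPKM in D-Ala and 29.8 to 385 FPKM in Vehicle libraries of the first; the part of these cells in the table difference was not tested.

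Among the tRNAs the minus-strand members had the larger table differences. The tRNA mt-Te had 15.5, 46.0 and 75.4 FPKM in the second and 114, 225 and 2043 FPKM in the first table, a log2 difference of -2.73 ± 0.23 (adjusted p = 2.42e-13, limma) with no overlap. mt-Nd6 had 215, 430.4 and 703 FPKM in the second and 503, 1080.4 and 5445 FPKM in the first (-1.66 ± 0.18). The median over the 8 minus-strand tRNAs was -1.66 and over the 11 plus-strand tRNAs tested -0.66.

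In 4 libraries of the first table the minus-strand genes stood high as a sum. Their summed FPKM was 9200, 6284 and 5972 in D-Ala CT16 replicate 1, D-Ala CT20 replicate 2 and D-Ala CT12 replicate 2, and 5375 in Vehicle CT20 replicate 2, which is 4.91, 3.35, 3.19 and 2.87 times the table median of 1874. The 20 other libraries of that table lay between 0.47 and 1.88 times it, and those of the second table between 0.48 and 1.55 times their median of 732. In D-Ala CT16 replicate 1, mt-Nd6 had 5445, mt-Te 2043, mt-Tc (cysteine) 211, mt-Tn (asparagine) 183 and mt-Ty (tyrosine) 139 FPKM, against first-table medians of 1080.4, 225, 9.14, 5.24 and 11.9 FPKM. The plus-strand mt-Cytb had 39729 FPKM in that library and a first-table median of 46335 FPKM. Minus-strand mt-Ts1 was not far above its median there, at 333 against 299 FPKM. Some plus-strand tRNAs were high too, with 11.7 FPKM for mt-Th and 22.2 FPKM for mt-Tl2 (leucine) in that library. In D-Ala CT12 replicate 2 and D-Ala CT20 replicate 2 mt-Th had 8.56 and 17.5 FPKM, and in Vehicle CT20 replicate 2 it had 0. The library D-Ala CT16 replicate 1 was also the shallowest, at 7626057 fragments. Without those 4 libraries, chosen after their values were seen, 7 chrM genes were called lower in D-Ala, the 6 named above and mt-Tw, and the rRNA amplitudes were 0.59 (mt-Rnr1) and 0.61 (mt-Rnr2) in D-Ala and 0.70 and 0.74 in Vehicle. The sources used here do not say whether strand was kept in the libraries and the counting, so fragments of a minus-strand gene and of the opposite strand at the same place cannot be told apart.

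**Figure D5:**
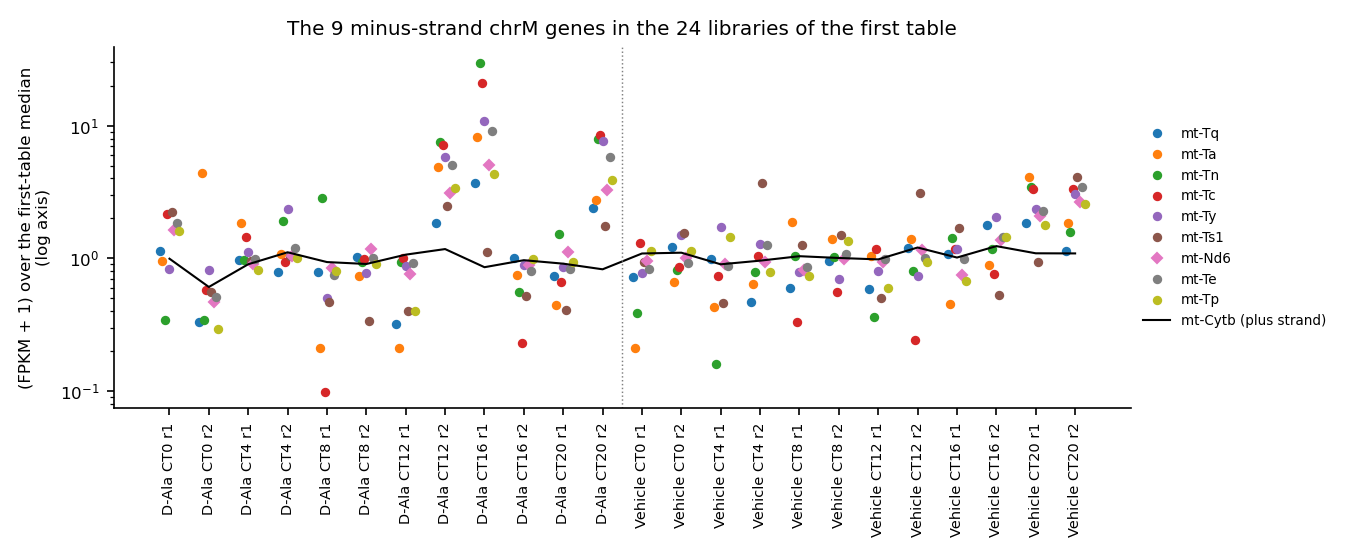
FPKM + 1 of the 9 minus-strand chrM genes in each of the 24 first-table libraries, over the gene's first-table median (log axis), D-Ala libraries left of Vehicle libraries; the line is the plus-strand mRNA mt-Cytb. In D-Ala CT16 replicate 1 the minus-strand sum is 4.91 times its median while mt-Cytb is near 1.

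How members varied together followed these groups in part. After taking out group and table means over the 48 libraries, the log2 values of the rRNAs had a Pearson r of 0.93. Among the 6 plus-strand mRNAs not wholly in the copied stretch the median r was 0.82 (15 pairs, 0.61 to 0.93), among the 9 minus-strand genes 0.56 (36 pairs), and among the 6 mRNAs wholly inside the stretch 0.42 (15 pairs). Between the plus-strand mRNAs not wholly in the stretch and the minus-strand genes the median r was 0.14 (54 pairs), and between those mRNAs and the rRNAs 0.49 (12 pairs). Between the minus-strand genes and the 11 plus-strand tRNAs it was 0.24 (99 pairs, -0.20 to 0.76), with the highest for mt-Th and mt-Nd6. These are descriptions over libraries that share depth and scaling.

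The nuclear genes that copy, transcribe and process mitochondrial RNA gave no calls by treatment. Of 46 measured members 0 were called, beside 1.74% of all genes (limma, smallest adjusted p = 0.118), 9 were below 0 and their median was 0.04, beside 0.06 for all genes. The smallest p belonged to Tfam, the packaging and transcription factor of mitochondrial DNA (log2 0.12 ± 0.04, 8.38 FPKM in D-Ala and 7.69 FPKM in Vehicle), and to Mgme1, an exonuclease that processes mitochondrial DNA ends (0.12 ± 0.05, adjusted p = 0.138), neither past the threshold. Over 24 h, 3 were called in D-Ala and 4 in Vehicle, beside the background of 8.3% in D-Ala and 9.77% in Vehicle. Mterf2, of the mitochondrial transcription termination factor family, peaked at CT6.80 in D-Ala and CT5.93 in Vehicle (log2 amplitudes 0.29 ± 0.06 and 0.32 ± 0.06, adjusted p = 0.00306 and 0.000718). Mterf3 of the same family peaked at CT20.4 in D-Ala and CT18.9 in Vehicle (0.16 ± 0.04 and 0.20 ± 0.04, adjusted p = 0.0207 and 0.00320). Mgme1 peaked at CT22.1 in D-Ala and CT20.0 in Vehicle (0.27 ± 0.05 and 0.22 ± 0.05, adjusted p = 0.000494 and 0.00556). In Vehicle 1110008L16Rik was also called (0.13 ± 0.03, peak CT7.43, adjusted p = 0.0311).

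Nuclear partners of the chrM-encoded subunits were set beside the same backgrounds, 1.74% of all genes called by treatment and 8.3% in D-Ala and 9.77% in Vehicle called rhythmic. Of 25 nuclear-encoded subunits of the same complexes and of complex II, 0 were called between D-Ala and Vehicle (median log2 -0.00, 13 below 0) and 0 were called rhythmic in D-Ala or Vehicle. The smallest treatment p was for Cox6c, a complex IV subunit (-0.12 ± 0.04, 161 ± 18.2 FPKM in D-Ala and 175 ± 21.3 FPKM in Vehicle, SD, n = 24, adjusted p = 0.113, limma), and the next for Atp5a1, the alpha subunit of ATP synthase (0.05 ± 0.04, adjusted p = 0.436), neither past the threshold. All 25 were called higher in the second table (median 0.60), where 41% of all genes were.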

How the data were processed

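RNA of 48 kidney libraries was deposited by the authors as FPKM values in 2 tables of 24 libraries; a SMARTER mRNA kit was used, per the labels' protocols, and the submitters' processing notes name GRCm38 and mm10. Aligner, counter, strand and multi-mapping settings are not stated in the sources used here. That the tables are the 2 occasions of the experiment is not stated either. Genes with FPKM of at least 1 in 4 libraries (14922) were fitted as log2(FPKM + 1), which understates changes of low genes, with limma 3.58.1 in R 4.3.3: 12 groups and table as terms, moderation with a trend, or a cosine and sine of 24 h per treatment and table; two-sided tests, Benjamini-Hochberg adjustment over all genes at 0.05. Recovered fragments came from FPKM steps (99.84 to 99.97% of low values within 0.05 of a whole number, and 339 of 339 on chrM). Shared runs of 50 bases and alignments (Biopython 1.88) used GENCODE M21, whose coordinates equal those of the tables for all 37 chrM genes. The fits were tested on simulated data. All mRNAs and rRNAs are named, of the tRNAs those called and the 4 highest; others were named after their values were seen. Members and lists were chosen with earlier results of these data known. Replicates were numbered in sample order, and p-values measure the spread between these libraries. Alternatives are given in the closing section.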

Additional observations from a re-analysis of the deposited data

Results flagged for a closer look

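Among 180 groups of 4 libraries of the mRNAs and rRNAs, compared after taking out the table difference on the log2 scale, 11 held a library far from the others by Dixon's criterion; chance flags about 1 in 20 groups. Below the others of their group were mt-Nd3 at 74.29 FPKM in D-Ala CT0 replicate 2, mt-Atp6 at 780.3 FPKM in D-Ala CT12 replicate 4, mt-Nd5 at 11152 FPKM in D-Ala CT4 replicate 1 and at 3719.6 FPKM in D-Ala CT8 replicate 4, and mt-Nd1 at 35800 FPKM in Vehicle CT16 replicate 1. Above the others were mt-Nd3 at 1067 FPKM in D-Ala CT4 replicate 1, mt-Atp8 at 98.1 FPKM in D-Ala CT8 replicate 3, mt-Atp6 at 7935 FPKM in Vehicle CT0 replicate 2, mt-Nd2 at 32548 FPKM in Vehicle CT12 replicate 2 and at 12182 FPKM in Vehicle CT4 replicate 3, and mt-Nd1 at 49074 FPKM in Vehicle CT12 replicate 2.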

How the results depend on the processing

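Against the 6 chrM genes called lower in D-Ala, 8 of 14 alternatives gave 4 to 8. Of these 8, adding the chromosome 1 copies could change the values of mt-Co1 alone among the 6. Without the filter on low values, with quantile normalization and without the table term the count was 1; with each library scaled to an equal sum of the 13 mRNAs it was 2 lower and 2 higher (reported: 0 higher), and in the first or the second table alone it was 0. Rhythm calls, 3 in each treatment, fell to 1 in D-Ala and 1 in Vehicle in the first table alone, and without the table term the rRNA rhythms were not called (adjusted p 0.179 and 0.214 in D-Ala, 0.0613 and 0.0859 in Vehicle, limma). Genes higher in the second table were 1, against 2, with scaling outside chrM. The call at CT0 was 0 with a pseudocount of 0.1, quantile normalization, scaling outside chrM or without the 4 libraries with a high minus-strand sum. Of all genes, 0.342%, 0%, 0.0469% and 0.476% were called at CT0 in these settings. Scaling to the 13 mRNAs turned the log2 difference of mt-Rnr1 to 0.1693, mt-Rnr2 to 0.1670, mt-Nd1 to 0.0020, mt-Co1 to 0.0382, mt-Nd4l to 0.0183, mt-Nd4 to 0.0449, mt-Nd6 to 0.1908 and mt-Cytb to 0.0194; by construction it holds the summed mRNA equal. The first table alone turned mt-Rnr1 to 0.0305, mt-Rnr2 to 0.0546 and mt-Nd6 to 0.2222, and quantile normalization mt-Cytb to 0.0276; the cause was not tested. Leaving out 1 library gave 6 to 9 lower and 0 higher, 3 to 4 rhythmic in D-Ala and 2 to 3 in Vehicle, 25 to 26 lower and 1 to 3 higher in the second table, and 0 to 5 at CT0. No paired analysis was possible because replicate numbers were given in sample order. The chromosome 1 copies, the 4 libraries left out, and the rhythm fits with voom or scaled to the 13 mRNAs were chosen after seeing the data. Low tRNAs are limited by depth: 1 fragment decides whether several are above 0.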
